A study of Mus musculus with 30 samples.

Results

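TREM2, its signaling adaptors and the receptors for the Fc part of immunoglobulin G were followed in mouse microglia through development, after maternal immune activation and after depletion and repopulation. The members were chosen by gene name, with earlier results of these data known. They were Trem2, Tyrobp (which encodes DAP12), Hcst (DAP10), Fcer1g (the Fc receptor gamma chain), Fcgr1, Fcgr2b, Fcgr3, Fcgr4, Syk and Inpp5d. Of these 10 genes, 9 had a value, in 10 transcripts of the 14225 in the table (Syk had 2), and no level of Inpp5d was analysed here. The unit was TPM, the share of all transcripts in a library that a transcript takes after correction for its length, so levels can be set side by side between genes.

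All libraries were poly(A) RNA-seq of CD11b+ cells taken with magnetic beads from whole brains of C57BL/6J mice, with 3 libraries in each of 10 groups. Offspring of dams given saline (Saline) or poly(I:C), a mimic of viral RNA, in early gestation (maternal immune activation, MIA) were taken at E17, P7, P20 and P60. The P60 animals had received either control chow throughout (CTRL) or chow with PLX5622, an inhibitor of the CSF1 receptor that kills microglia, followed by control chow, after which microglia repopulate the brain (MG-REP). The E17, P7 and P20 animals received no PLX5622, and no group carried an engineered allele. Each E17 library came from 1 litter, each P7 library from 3 pooled brains, and each P20 and P60 library from 1 brain. CD11b is also carried by other myeloid cells and by natural killer cells, so the beads do not take microglia alone. These are bulk samples, in which fewer cells of a type and less RNA per cell cannot be told apart.

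TREM2 is a surface receptor for lipids and lipoproteins that has no signaling tail of its own. It pairs with DAP12, whose tyrosine motif recruits the kinase SYK, and DAP10 can join the same complexes and engages phosphoinositide 3-kinase. The activating Fc gamma receptors FcγRI, FcγRIII and FcγRIV, encoded by Fcgr1, Fcgr3 and Fcgr4, signal in the same way through the Fc receptor gamma chain, while FcγRIIB, encoded by Fcgr2b, is the inhibitory member. In microglia these pathways serve the uptake of debris, lipids and antibody-coated material.

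The rows do not all measure a whole gene. Tyrobp, Hcst, Fcer1g, Fcgr1, Fcgr3 and Fcgr4 have a single RefSeq transcript, whereas the rows of Trem2 (NM_001272078), Fcgr2b (NM_001077189) and Syk (NM_011518 and NM_001198977) share most of their bases with another transcript of the gene. Only 55 bases (5.21%) of the Trem2 transcript and 141 (9.11%) of the Fcgr2b transcript were not shared, and 202 (3.94%) and 443 (8.26%) of the Syk transcripts. These counts stop at the RefSeq limits of the genes. In GENCODE the Fcgr2b transcript has 1941 further noncoding bases of its own past that limit (chr1:170958617-170960557), which were not counted. In the whole table, the median of the mean level was 27.7 TPM for 10257 transcripts of genes with a single one and 1.89 TPM for 1534 transcripts with under 10% of bases of their own. The levels of the Trem2, Fcgr2b and Syk rows are therefore not gene levels, and how reads in shared bases were assigned is not given in the sources used here. The stretches within those limits that set the Trem2 and Fcgr2b rows apart from the other transcript are shown because they are what those rows can measure on their own there. Both lie in coding exons, given here in the direction of transcription on GRCm38 (mm10), at chr17:48351691-48351745 (plus strand) and chr1:170963325-170963465 (minus strand).
Trem2 NM_001272078: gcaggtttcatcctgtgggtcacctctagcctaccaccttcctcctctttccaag
Fcgr2b NM_001077189: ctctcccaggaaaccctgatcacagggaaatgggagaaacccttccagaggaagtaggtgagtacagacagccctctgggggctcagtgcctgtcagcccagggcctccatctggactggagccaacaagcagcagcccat

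The genes sit in a few clusters (GRCm38). Fcgr2b (chr1:170960558-170976071, minus strand), Fcgr4 (chr1:171018926-171029761, plus), Fcgr3 (chr1:171051169-171065915, minus) and Fcer1g (chr1:171229572-171234349, minus) share a stretch of chromosome 1. Tyrobp (chr7:30413782-30417582, plus) and Hcst (chr7:30417712-30419854, minus) are neighbors that point at each other on chromosome 7, and the libraries were not stranded. Fcgr1 (chr3:96282909-96293969, minus), Trem2 (chr17:48346401-48352276, plus) and Syk (chr13:52582610-52648792, plus) lie apart.

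Several libraries stood apart and bear on the results. Summed TPM of 10 microglial markers was 17720 to 57273 across libraries, above every other list summed. The 3 Saline + MG-REP libraries had 573 to 1627 TPM over 13 mitotic markers, against 24.9 to 37.2 in Saline + CTRL and 27.6 to 30.1 in MIA + MG-REP. Saline + MG-REP replicate 2 had 5447 TPM over 10 monocyte and neutrophil markers, against 122 and 369.6 in the other replicates and 796 to 929 in Saline + CTRL. E17 MIA replicate 1 had 863 TPM over 3 neuronal markers, against 117 and 131 in the other replicates. All 6 P20 and all 6 MG-REP libraries were high in Xist and near 0 in the Y-linked Ddx3y, while in each CTRL group replicate 1 was of that kind and replicates 2 and 3 were not. The E17 and P7 libraries held both Xist and Ddx3y, other than in P7 MIA, where Ddx3y reached down to 0 TPM. The sex makeup therefore differs between the groups compared in the steps from P7 to P20 and from P20 to P60 CTRL and in MG-REP against CTRL, and is uneven within P7 MIA, whereas MIA and Saline have the same layout at P20 and in CTRL. The sources give no further tie between same-numbered libraries, and no litter for the single P7, P20 and P60 libraries. The dam was treated, so libraries of the same group may share a litter. The p-values take each library as independent and rest on the spread between libraries.

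The adaptors were among the most abundant transcripts of these cells. Tyrobp had a mean of 3380 TPM over the 30 libraries and ranked 19 of 14225, Fcer1g had 1977 TPM and ranked 43, and the ligand-binding chain Fcgr3 had 1272 TPM and ranked 73. Fcgr1 followed at 294 TPM, then Fcgr4 at 56.2 and Hcst at 35.6. The transcript rows of Trem2, Fcgr2b and Syk came last, at 7.82, 3.07, 2.83 (Syk NM_001198977) and 1.96 TPM (Syk NM_011518). By an estimate of reads from the spacing of low values, Tyrobp rested on 3571 to 11728 reads per library, Fcgr4 on 70 to 593, Trem2 on 13 to 54 and Fcgr2b on 1 to 51. Single libraries of the low rows thus carry large counting error.

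Tyrobp varied little with age and was highest after repopulation. It was 3132, 3937 and 3516 TPM in E17 Saline and 2151, 3833 and 2598 in E17 MIA. At P7 it was 3907, 3579 and 3578 TPM in Saline and 3876, 3526 and 2321 in MIA. The P20 libraries had 2316, 3425 and 2961 TPM (Saline) and 2971, 3221 and 3129 (MIA). P7 Saline lay above both P20 groups without overlap, and the other pairs of these groups overlapped. At P60, Saline + CTRL had 2812, 2359.7 and 3460.2 TPM and MIA + CTRL 2077, 2869.98 and 3274. After repopulation, Saline + MG-REP had 4959.6, 4988 and 4942 TPM and MIA + MG-REP 3884, 4044 and 3747. All 6 MG-REP libraries were above all 6 CTRL libraries, as were those of 2% of all transcripts. The 3 Saline + MG-REP libraries lay above all other 27, and of the 9 steps between neighbors in the order of group means, that step was the single one with no overlap. The shares of all transcripts for that separation and for P7 Saline above P20 were not counted.

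By group means, Fcer1g was lower at P20 and in CTRL than at E17 and P7, and highest in Saline + MG-REP. The E17 libraries had 2184, 2659.7 and 2535 TPM (Saline) and 1458, 2558 and 1801 (MIA), and the P7 libraries 2138, 2042 and 2179 (Saline) and 2390.4, 2169 and 1443 (MIA). At P20 they had 1208, 1836 and 1562 TPM (Saline) and 1563, 1771 and 1762 (MIA). The P20 Saline group lay below E17 Saline and P7 Saline without overlap, and the share of all transcripts that did so was not counted. The MIA groups of E17 and P7 spanned the P20 MIA values. At P60, Saline + CTRL had 1656, 1373 and 2046 TPM and MIA + CTRL 1221, 1706 and 1868. Saline + MG-REP had 2992, 2590.3 and 2561 TPM and MIA + MG-REP 2039.7, 2076 and 1912. Each MG-REP group lay above the CTRL group of the same dams, as did 14.9% (Saline) and 6.74% (MIA) of all transcripts, but the highest CTRL library (2046 TPM) was above the lowest MG-REP library (1912 TPM).

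Hcst, the DAP10 adaptor, was far less abundant than Tyrobp and Fcer1g. Its group means ran from 27.4 ± 5.64 TPM (SD, n = 3) in P20 MIA to 54.6 ± 8.04 in Saline + MG-REP. Saline + CTRL had 41.1, 37.3 and 46.2 TPM and MIA + CTRL 28.3, 23.2 and 35.4, and Saline + MG-REP had 63.8, 51.1 and 48.9 and MIA + MG-REP 50.5, 57.6 and 49.4. Both MG-REP groups were above all 6 CTRL libraries, as were those of 2% of all transcripts. The libraries of E17, P7 and P20 reached from 16.03 TPM (P7 MIA replicate 3) to 44.6 (P20 Saline replicate 3), and their groups overlapped.

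**Figure D1:**
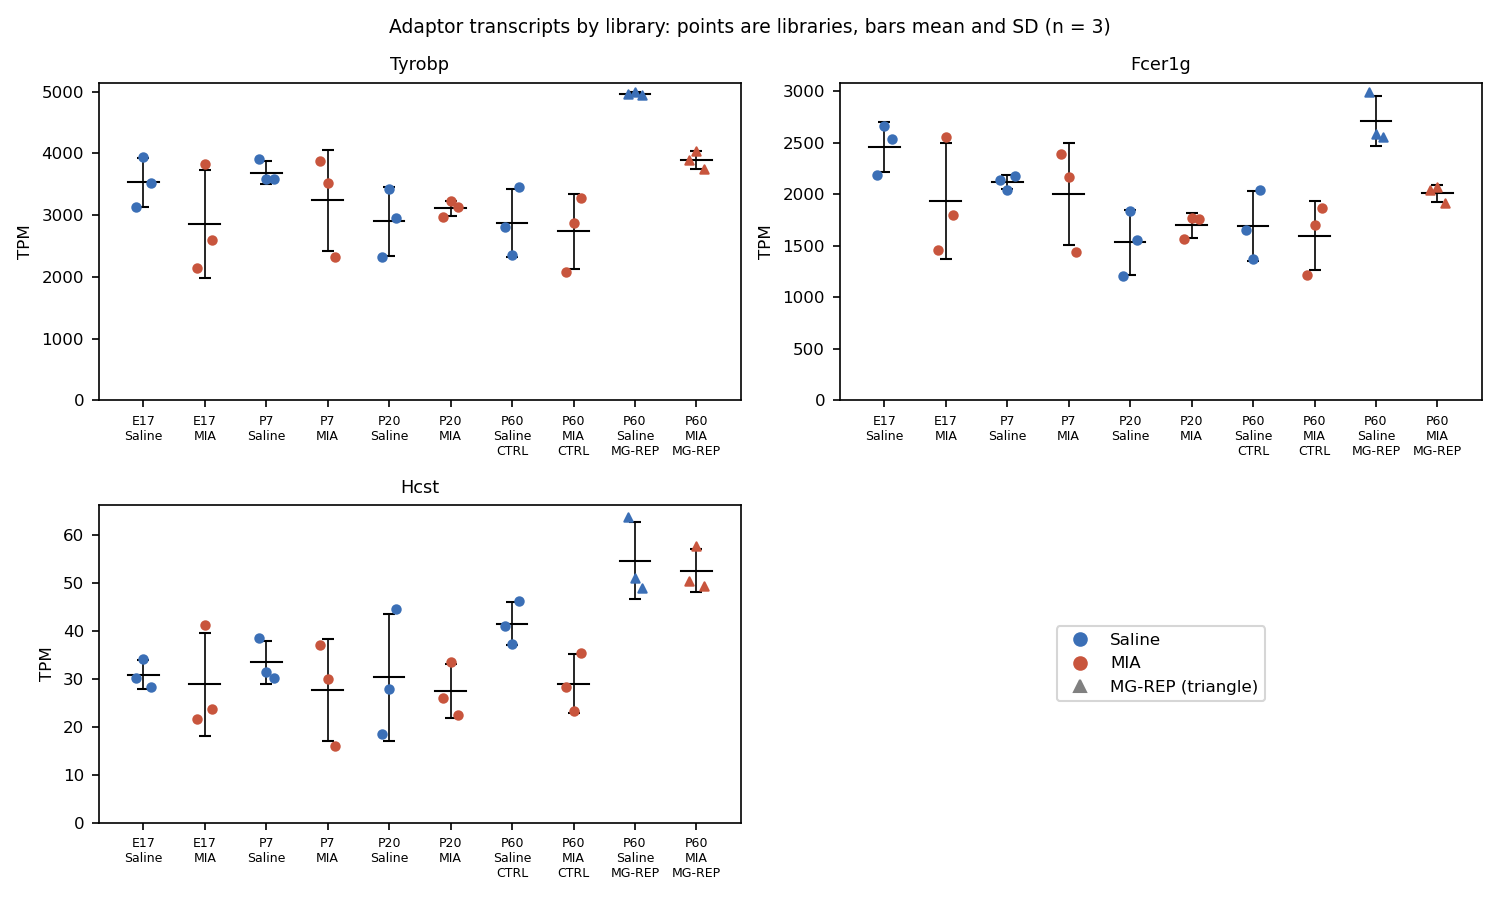
TPM of the adaptors Tyrobp, Fcer1g and Hcst (y axes, from 0) in each library of the 10 groups (x axes), with the group mean and SD (n = 3). The 3 Saline + MG-REP libraries of Tyrobp sit between 4942 and 4988 TPM, above all others, and the Hcst libraries of both MG-REP groups sit above every CTRL library.

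Fcgr4 encodes FcγRIV, an activating receptor of mouse myeloid cells, and it had the widest range among the members measured as whole genes, with a ratio of 3.22 between its highest and lowest group mean. E17 Saline had 69.6, 93.2 and 106 TPM and E17 MIA 50.4, 89.2 and 80.05, and at P7 Saline had 32.5, 41.4 and 46.7 and MIA 47.3, 57.6 and 32.3. At P20, Saline had 22.4, 23.0 and 81.0 TPM and MIA 44.9, 33.9 and 32.3. P20 Saline replicate 3 alone stood far above its group, and it also had the highest Hcst and Fcgr3 of the P20 Saline libraries, with a monocyte and neutrophil marker sum (325 TPM) inside the range of the group (258 to 669) and an astrocyte marker sum of 247 TPM, the highest of the 30 libraries, against 136 and 57.0 in the other replicates. The part of that RNA was not tested. At P60, Saline + CTRL had 26.4, 20.03 and 45.5 TPM and MIA + CTRL 18.4, 30 and 38.9. Saline + MG-REP had 58.3, 111 and 112 TPM and MIA + MG-REP 87.1, 89.1 and 66.2. All 6 repopulated libraries were above all 6 CTRL libraries, as were those of 2% of all transcripts. They were within or near the range of the E17 libraries.

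Fcgr1 encodes the high-affinity receptor FcγRI and was low at E17 and P7 and higher from P20 on. Its E17 libraries had 181, 255 and 257 TPM (Saline) and 149, 255 and 192 (MIA), and its P7 libraries 159, 224 and 251 (Saline) and 232, 257 and 179 (MIA). At P20 it had 318, 361 and 388 TPM (Saline) and 391, 397 and 286 (MIA), and every P20 library was above every P7 library, as for 11.4% of all transcripts. At P60 it had 336, 295 and 396 TPM in Saline + CTRL, 239.6, 308 and 341 in MIA + CTRL, 305, 372 and 399 in Saline + MG-REP, and 343, 409.6 and 357 in MIA + MG-REP. MIA + CTRL replicate 1 was back in the range of the E17 and P7 libraries, and the other P60 libraries were above it.

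The Fcgr2b row, a transcript of the inhibitory receptor, was almost absent before P20. It had 0.41, 0.57 and 0.58 TPM in E17 Saline, 0.31, 0.30 and 0.14 in E17 MIA, 0.34, 0.76 and 0.75 in P7 Saline and 0.99, 0.52 and 0.69 in P7 MIA. At P20 it had 4.68, 5.96 and 6.47 TPM (Saline) and 5.42, 7.29 and 3.06 (MIA). No library of E17 or P7 reached 1 TPM and none of P20 fell under 3. At P60 it had 2.50, 3.20 and 4.09 TPM in Saline + CTRL and 3.83, 2.87 and 4.69 in MIA + CTRL, and 7.88, 3.52 and 5.13 in Saline + MG-REP and 5.26, 5.23 and 4.55 in MIA + MG-REP. Its group means differed by up to 22.8 times, the widest ratio of the 10 transcripts, at read numbers too low to give the early levels precisely.

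Fcgr3, the ligand-binding chain of FcγRIII and the most abundant of the 4 receptors, moved least of them. Group means ran from 1050.4 ± 299 TPM (SD, n = 3) in E17 MIA to 1516 ± 118 in MIA + MG-REP, and every neighboring pair in the order of means overlapped. Saline + MG-REP had 885, 1135 and 1238 TPM, below the 1406, 1639.8 and 1503 of MIA + MG-REP without overlap (25.3% of all transcripts were apart in that direction), and its range overlapped that of Saline + CTRL (1449, 1144 and 1675). Relative to Fcgr3 in the same library, Fcgr4 stood at a mean ratio of 0.0688 ± 0.0118 (SD, n = 3) in E17 Saline, at 0.0210 ± 0.00536 in Saline + CTRL, and after repopulation at 0.0847 ± 0.0167. In the MIA line the same ratio was 0.0701 ± 0.0119 at E17, 0.0211 ± 0.0023 in MIA + CTRL and 0.0535 ± 0.0090 in MIA + MG-REP.

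**Figure D2:**
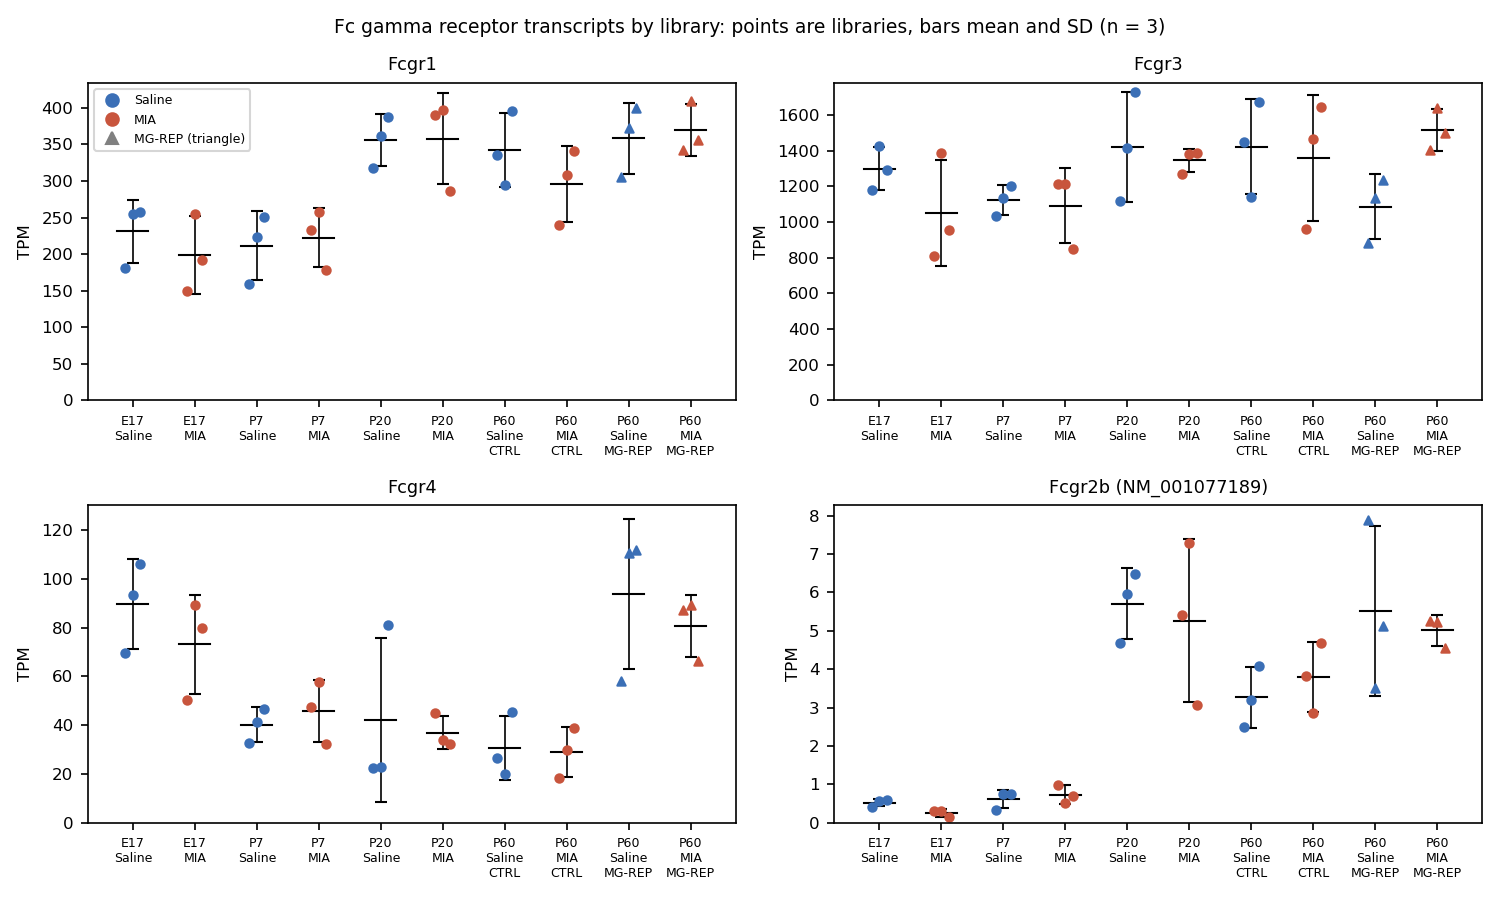
TPM of the 4 Fc gamma receptor rows (y axes, from 0) in each library of the 10 groups (x axes), with the group mean and SD (n = 3); the Fcgr2b row is 1 transcript of its gene. Fcgr1 is higher in all P20 than in all P7 libraries, Fcgr2b is under 1 TPM before P20, and Fcgr4 is highest at E17 and after repopulation.

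The Trem2 row had 7.56, 9.54 and 8.01 TPM in E17 Saline, 3.75, 7.95 and 7.31 in E17 MIA, 3.20, 6.18 and 5.23 in P7 Saline and 8.26, 5.41 and 4.64 in P7 MIA. At P20 it had 5.76, 10.7 and 5.49 TPM (Saline) and 7.77, 11.0 and 9.56 (MIA), and at P60 10.1, 6.24 and 9.54 in Saline + CTRL and 6.88, 8 and 11.8 in MIA + CTRL. Saline + MG-REP had 7.09, 6.89 and 7.88 TPM and MIA + MG-REP 10.3, 12.2 and 10.2. All neighbors in the order of its 10 group means overlapped. Of the Syk rows, NM_011518 was highest at P20, with 3.14, 3.06 and 3.36 TPM (Saline) and 2.46, 2.80 and 2.78 (MIA), against 0.98, 1.16 and 1.99 and 1.20, 1.69 and 1.80 at P7. The P20 Saline libraries of this row were above all other 27, and the share of all transcripts for which this holds was not counted. The other Syk row, NM_001198977, stayed between 1.74 and 3.91 TPM, with all neighboring group means overlapping.

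**Figure D3:**
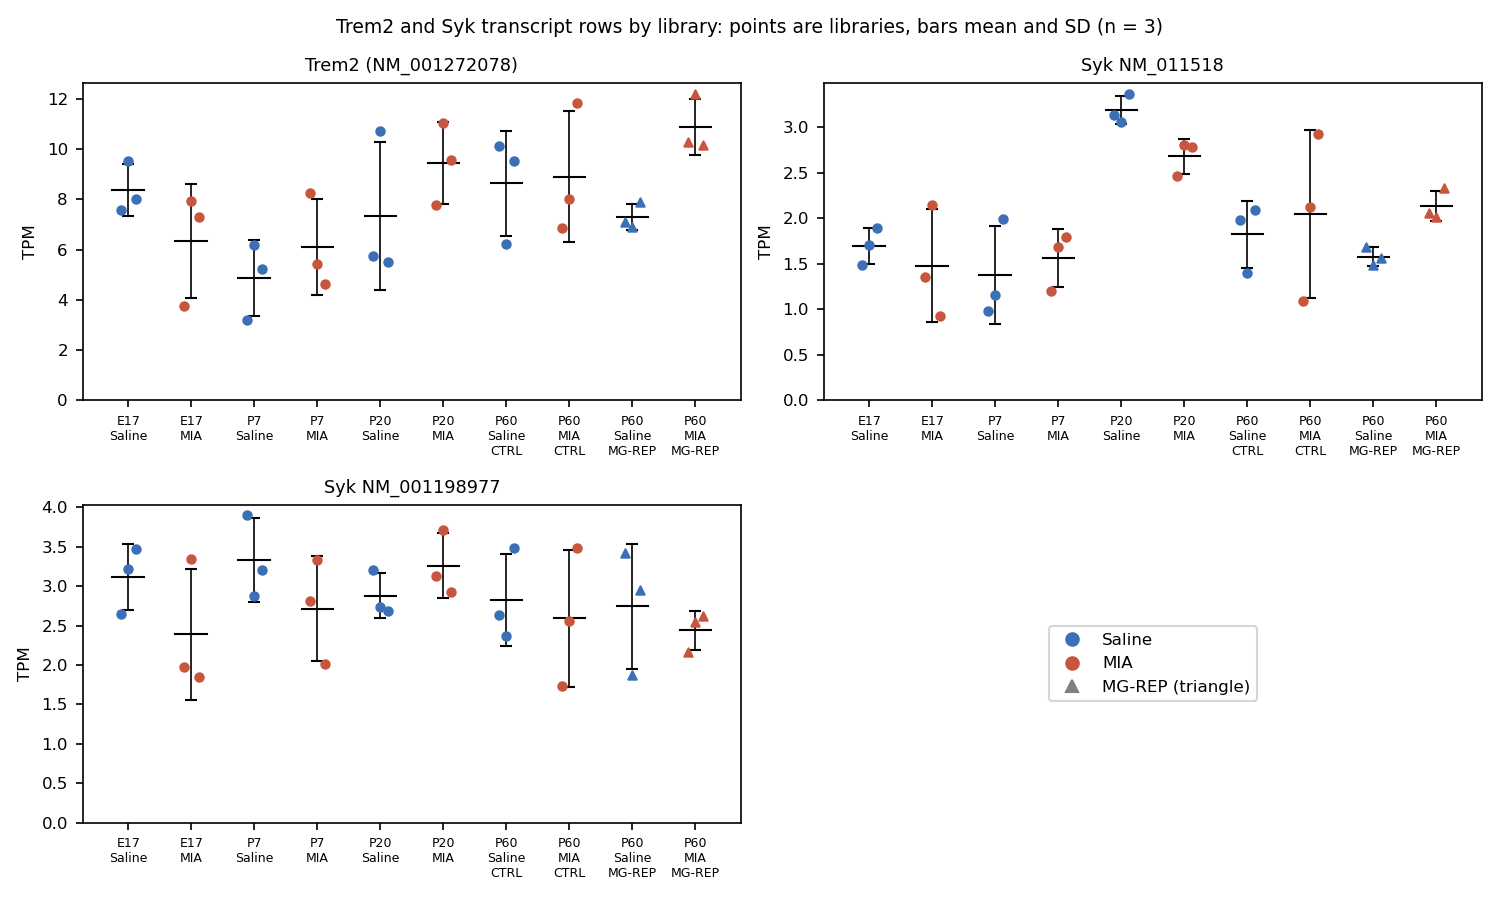
TPM of the Trem2 row and both Syk rows (y axes, from 0) in each library of the 10 groups (x axes), with the group mean and SD (n = 3); each row is 1 transcript and not the whole gene. Syk NM_011518 is highest at P20, between 2.46 and 3.36 TPM, and the Trem2 groups overlap in order.

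The design first asks what changed with age. Changes were estimated as differences of mean log2(TPM + 1), a scale that understates the change of low transcripts, in a limma model over all 30 libraries with Benjamini-Hochberg adjustment over all 14225 transcripts, and a transcript was called at an adjusted p under 0.05. For the age steps the Saline and MIA groups were averaged. From E17 to P7, 1 member was called: Fcgr4 fell by 0.90 on the log2 scale (SE 0.274, adjusted p = 0.0352, limma), from a mean of 81.4 to 43.0 TPM (n = 6 each). The background was 10.8% of all transcripts called and 4.03% of all transcripts called lower, and the median change of the members was -0.03 against 0.01 over all transcripts. The Fcgr4 call was lost, with adjusted p of 0.0531 to 0.0876, on leaving out E17 Saline replicate 2 or 3, E17 MIA replicate 2 or 3, P7 Saline replicate 1 or 2, or P7 MIA replicate 1 or 3. The monocyte and neutrophil marker sum moved with it, from 592 to 1756 TPM at E17 to 132 to 674 at P7, and its part in the result was not tested.

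From P7 to P20, 5 members were called, 4 of them higher, against a background of 50.7% called and 21.6% higher, so the share called was that of the whole table. Fcgr2b rose by 1.93 on the log2 scale (SE 0.169, adjusted p = 1.94e-09), Fcgr1 by 0.73 (SE 0.143, adjusted p = 1.8e-04) and Syk NM_011518 by 0.68 (SE 0.142, adjusted p = 3e-04). These 3 did not overlap between the ages, where 11.4% of all transcripts lay apart and higher, and they were called in every alternative setting, the Xist covariate included. Trem2 rose by 0.53 (SE 0.194, adjusted p = 0.0253), and Fcer1g fell by 0.35 (SE 0.143, adjusted p = 0.047). The Trem2 call was lost (adjusted p of 0.0519 to 0.0957) without P7 Saline replicate 1, P7 MIA replicate 2 or 3, P20 Saline replicate 2 or P20 MIA replicate 2. That of Fcer1g was lost (adjusted p of 0.0587 to 0.142) without any 1 library except P7 MIA replicate 3 and P20 Saline replicate 2, and with median-ratio scaling (0.255), the Xist covariate (0.0621), no variance trend (0.0511) or the replicate block (0.0504). Trem2 also lost its call with quantile normalization (0.0704) and in a model of these 12 libraries alone (0.0528). Fcgr3 had a change of 0.32 (adjusted p = 0.0734), and was called without P20 Saline replicate 1 (adjusted p = 0.0316). In 20 of 23 alternative settings it stayed uncalled, and the lowest adjusted p over all of them was 0.0206. Microglial marker sums were 21710 to 31788 TPM at P7 and 39980 to 54043 at P20, mitotic marker sums 1246 to 1404 and 32.5 to 52.9, and their part in these results was not tested.

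The step to P20 was seen in the offspring of both kinds of dam. Fcgr2b rose by 2.05 (adjusted p = 5.44e-07) in Saline and 1.80 (adjusted p = 3.38e-06) in MIA offspring, Fcgr1 by 0.77 (adjusted p = 0.00471) and 0.68 (adjusted p = 0.0105), and Syk NM_011518 by 0.84 (adjusted p = 0.00219) and 0.53 (adjusted p = 0.0426), each from 3 against 3 libraries in the same limma model. Whether these changes differ between the dams was not tested. From P20 to P60 CTRL, 1 member was called, at a background of 12% called and 7.71% lower: Syk NM_011518 fell by 0.45 (SE 0.142, adjusted p = 0.0407). That call was lost with the replicate number of the P20 libraries as a term (adjusted p = 0.0533), and (adjusted p of 0.0541 to 0.133) without any 1 library except Saline + CTRL replicate 3 and MIA + CTRL replicate 3. Fcgr2b had -0.50 (SE 0.169, adjusted p = 0.0546) at this step, and it was called without Saline + CTRL replicate 3, MIA + CTRL replicate 3, P20 Saline replicate 1 or P20 MIA replicate 3, with adjusted p of 0.0139 to 0.047.

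**Figure D4:**
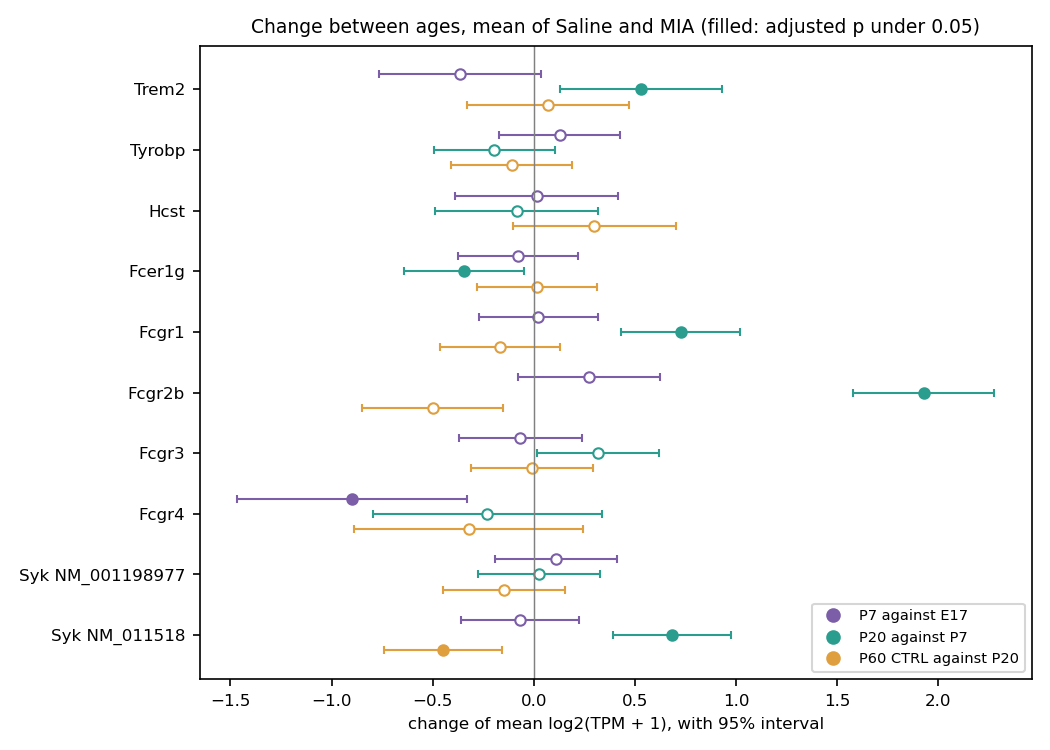
Change of mean log2(TPM + 1) of the 10 member transcripts (x axis) between successive ages, averaged over Saline and MIA (6 libraries at each age), with 95% intervals from the limma model; filled points have an adjusted p under 0.05. Fcgr2b, Fcgr1 and Syk NM_011518 lie clearly above 0 in the step from P7 to P20, and Fcgr4 lies below 0 from E17 to P7.

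Other genes of the pathway, from lists of known partners, are given for the step from P7 to P20, where 21.6% of all transcripts rose and 29.1% fell. Among 12 other receptors that pair with DAP12 or the gamma chain, 1 rose and 3 fell: Cd300c2 went from 290.2 to 533 TPM (log2 change 0.88, adjusted p = 7.8e-06), while Cd200r4 fell by 2.12 (adjusted p = 2.17e-09). Of 18 transcripts of inhibitory receptors and phosphatases, 5 rose and 2 fell, with Cd33, a sialic acid receptor, up by 1.13 (adjusted p = 2.84e-07) and Siglece by 1.23 (adjusted p = 4.41e-05). Of 8 genes known to depend on TREM2 in disease-associated microglia, 1 rose and 6 fell, led by Lpl, a lipase, at -2.92 (adjusted p = 3.14e-11) and Itgax, the integrin CD11c, at -2.13 (adjusted p = 2.99e-11). Of 10 transcripts of transcription factors known to act at these genes, 3 rose and 1 fell. Lists of TREM2 ligands had 1 higher and 4 lower of 5 transcripts, Src kinases and adaptors 1 and 5 of 21, downstream enzymes 8 and 6 of 34, and shedding enzymes 0 and 4 of 8.

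The design next asks whether MIA changed these genes at each age, with 3 MIA against 3 Saline libraries. By limma no member was called at E17, P7, P20 or P60 CTRL, and 0 of 14225 transcripts were (0% each). At an unadjusted p under 0.05 the 4 comparisons had 585, 335, 457 and 256 transcripts (4.11%, 2.36%, 3.21% and 1.8%), none of them a member. At E17 all 10 member transcripts were lower in MIA, by changes of -0.40 to -0.15, where the median of all transcripts was 0.10. The share of all transcripts that were lower was not counted. E17 MIA replicate 1, the library with the neuronal marker sum of 863 TPM, was the lowest E17 MIA library for 7 of the 10 transcripts. Microglial marker sums were 17720, 29997 and 21607 TPM in E17 MIA and 24307, 30804 and 29109 in E17 Saline. The part of the neuronal RNA and of the microglial share in the shift was not tested. Fcgr2b lay apart at E17 (0.14 to 0.31 against 0.41 to 0.58 TPM), at 2.29% of all transcripts apart and lower, on a few reads per library. At P20 the Syk NM_011518 libraries of MIA (2.46 to 2.80 TPM) lay below those of Saline (3.06 to 3.36), as 6.23% of all transcripts did. At P60 CTRL the largest difference was that of Hcst, -0.52 (adjusted p = 1), with 28.3, 23.2 and 35.4 TPM in MIA + CTRL below 41.1, 37.3 and 46.2 in Saline + CTRL (3.34% of all transcripts were apart and lower).

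In offspring of saline dams, 3 members were higher in repopulated than in resident microglia. Fcgr4 rose by 1.60 on the log2 scale (SE 0.388, adjusted p = 0.00301, limma), from a mean of 30.6 to 93.8 TPM. Tyrobp rose by 0.80 (SE 0.205, adjusted p = 0.00456), from 2877 to 4963 TPM, and Fcer1g by 0.70 (SE 0.202, adjusted p = 0.0117), from 1692 to 2714 TPM. The background was 26.7% of transcripts called and 11.9% called higher, against 3 of the 10 member transcripts called higher. Hcst had a change of 0.38 (adjusted p = 0.345) and Fcgr2b 0.57 (adjusted p = 0.0803), and Fcgr3 had -0.39 (adjusted p = 0.183), which with quantile normalization was called lower (-0.58, adjusted p = 0.0255). Trem2 (-0.19, adjusted p = 0.659), Fcgr1 (0.07, adjusted p = 0.844) and both Syk rows (-0.12 and -0.04) did not pass. Of the activating receptors that signal through the gamma chain, Fcgr4 was thus called higher, as the gamma chain was, while Fcgr1 and Fcgr3 were not. Whether these changes differ between the genes was not tested. The median change of the members was 0.23 against -0.14 over all transcripts.

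The calls differ in how far they rest on single libraries. Fcgr4 was called in all 14 alternative settings, with changes of 1.35 to 1.94. Without Saline + MG-REP replicate 2, the library with the monocyte and neutrophil marker sum of 5447 TPM, Fcgr2b was also called (0.81, adjusted p = 0.0187). Fcer1g lost its call without Saline + CTRL replicate 2 (0.56, adjusted p = 0.073) or Saline + MG-REP replicate 1 (0.63, adjusted p = 0.0602). With the model restricted to these 6 libraries Tyrobp had an adjusted p of 0.0691 and Fcer1g of 0.0739. With the Xist level as a covariate the changes were 1.94 for Fcgr4 (adjusted p = 0.00589), 0.98 for Tyrobp (adjusted p = 0.00789) and 0.87 for Fcer1g (adjusted p = 0.0161). The CTRL library without Ddx3y, replicate 1, had 2812 TPM of Tyrobp and 26.4 of Fcgr4, below every Saline + MG-REP library. A single library cannot separate sex from repopulation. Xist was 161 to 169 TPM in Saline + MG-REP and 159 to 174 in MIA + MG-REP, so the covariate drew its slope mainly from other groups. Beyond that fit, the part of sex in these calls was not tested.

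Markers of other cells and states moved with the same comparison. Microglial marker sums were 27577, 31218.5 and 30688.5 TPM in Saline + MG-REP against 39447 to 57273 in Saline + CTRL, and border macrophage sums 2373, 1345 and 1341 TPM against 904 to 1197. Single markers did not all follow their sums. Of the border macrophage markers, Mrc1 was at 158 to 241 TPM against 176 to 212 and Cd163 was at 0 to 0.06 TPM in Saline + MG-REP and 0.27 to 0.86 in Saline + CTRL. The monocyte and neutrophil sum was lower than in every Saline + CTRL library in replicates 1 and 3 and higher in replicate 2. Within it the neutrophil gene S100a8 was at 15.2 to 2754 TPM against 395 to 473, and the monocyte gene Ccr2 at 49.9 to 64.1 against 18.1 to 19.6 TPM. Natural killer and T cell sums were 3.75 to 14.8 TPM against 15.6 to 39.5, and B cell sums 0.66 to 2.19 against 3.26 to 5.04. With the mitotic sums given above, their part in the results was not tested.

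In offspring of MIA dams no member passed the test, and 79 of 14225 transcripts did (0.555%), while at an unadjusted p under 0.05 the limma fit had 3 members and 6.2% of all transcripts. Fcgr4 had a change of 1.49 (SE 0.388, unadjusted p = 7.98e-04 in the limma fit, adjusted p = 0.1), from 29.1 to 80.8 TPM. Hcst had 0.85 (SE 0.276, adjusted p = 0.302), Tyrobp 0.53 (SE 0.205, adjusted p = 0.539), Fcer1g 0.35 (SE 0.202, adjusted p = 0.921) and Fcgr1 0.33 (SE 0.202, adjusted p = 0.955). Each of these 5 lay above its MIA + CTRL libraries without overlap, where 6.74% of all transcripts did. In these libraries mitotic sums were 27.6 to 30.1 TPM against 21.8 to 32.1 in MIA + CTRL, and border macrophage sums 694 to 868 against 885 to 973. Monocyte and neutrophil sums were 537 to 961 TPM against 603 to 739. Ccr2 was at 20.8 to 29.8 TPM in MIA + MG-REP against 13.6 to 19.0 in MIA + CTRL, higher without overlap, and S100a8 at 272 to 467 against 311 to 394. The part of these markers in the Fcgr4 values was not tested.

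The test of the difference between the effects of repopulation in MIA and Saline offspring called no member, at 10.5% of all transcripts called. Members had differences of -0.35 to 0.58 on the log2 scale, with a lowest adjusted p of 0.247, and at an unadjusted p under 0.05 the limma fit had 0 members and 22.8% of all transcripts. The difference for Fcgr4 was -0.11 (SE 0.549, adjusted p = 0.964), for Tyrobp -0.27 (SE 0.29, adjusted p = 0.689), for Fcer1g -0.35 (SE 0.286, adjusted p = 0.553) and for Hcst 0.47 (SE 0.39, adjusted p = 0.555), with errors too wide to show that the responses were alike. Between the repopulated groups themselves, no member was called where 22% of transcripts were (10.9% higher and 11% lower), and at an unadjusted p under 0.05 the limma fit had 2 members and 33.2% of all transcripts. Fcgr3 had 0.49 (SE 0.207, adjusted p = 0.0924) and Fcer1g -0.43 (SE 0.202, adjusted p = 0.135) in MIA + MG-REP against Saline + MG-REP. Trem2, Fcgr3 and Syk NM_011518 lay higher and Tyrobp and Fcer1g lower in MIA + MG-REP without overlap, where 25.3% and 17.4% of all transcripts did. Of all 6 MG-REP against all 6 CTRL libraries, Tyrobp, Hcst and Fcgr4 lay higher without overlap, 3 of the 10 transcripts, against 2% of all transcripts.

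**Figure D5:**
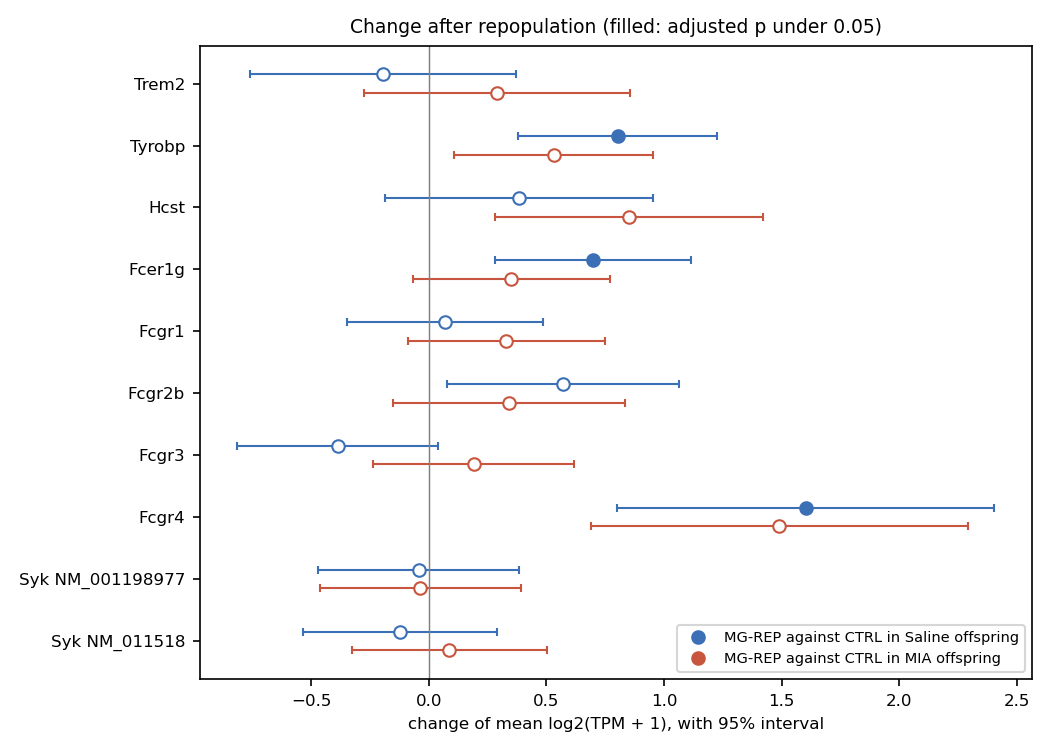
Change of mean log2(TPM + 1) of the 10 member transcripts after repopulation (x axis), MG-REP against CTRL with 3 libraries each, in Saline and MIA offspring, with 95% intervals from the limma model; filled points have an adjusted p under 0.05. Fcgr4 stands at 1.60 and 1.49, and Tyrobp and Fcer1g are called in Saline offspring.

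Other receptors that share the adaptors were also higher in Saline + MG-REP. Of the 12 other receptors that pair with DAP12 or the gamma chain, 6 rose and none fell, with or without Saline + MG-REP replicate 2. With all libraries, 11.9% of all transcripts rose and 14.9% fell, the background for the Saline counts of the lists that follow as well. Trem1, an amplifying receptor of neutrophils and monocytes, had 75.3 ± 41.2 TPM (SD, n = 3) against 8.57 ± 5.82 (log2 change 3.01, adjusted p = 5.89e-05), and it rose by 3.04 without that library. Clec4e, a gamma chain-coupled lectin, rose by 1.95 (adjusted p = 0.00162) and Sirpb1b by 1.55 (adjusted p = 7.3e-04). In MIA offspring none of the 12 was called. There 0.387% of all transcripts were called higher and 0.169% lower, the background for the MIA counts of the lists that follow. The monocyte and neutrophil marker sums given above are those of the same libraries, and their part in these changes was not tested.

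Inhibitory receptors and phosphatases split, with 4 of 18 transcripts higher and 4 lower in Saline + MG-REP, and 3 higher and 4 lower without replicate 2. Pilra, an inhibitory receptor, rose from 12.97 ± 4.19 to 95.8 ± 32.5 TPM (log2 change 2.78, adjusted p = 3.58e-07) in Saline and from 11.4 ± 1.02 to 41.5 ± 5.82 (1.78, adjusted p = 0.00452) in MIA offspring. Clec12a rose by 2.95 (adjusted p = 8.5e-07) in Saline offspring, while Siglecg fell by 1.39 (adjusted p = 0.00101). Of the 8 genes known to depend on TREM2 in disease-associated microglia, 3 rose and 2 fell in Saline and 2 rose in MIA offspring. Cst7, a cystatin, went from 17.3 ± 7.71 to 152 ± 57.5 TPM (3.07, adjusted p = 5.22e-08) in Saline and from 17.2 ± 0.482 to 49.7 ± 7.99 (1.46, adjusted p = 0.0232) in MIA offspring, and Itgax rose by 2.25 (adjusted p = 1.38e-08) and 1.55 (adjusted p = 1.64e-04). Ccl6 fell by 1.01 (adjusted p = 0.00208) and Ctsl by 0.95 (adjusted p = 0.0031) in Saline offspring.

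In the remaining lists the count was 0 in MIA offspring by limma, and calls in Saline offspring were as follows. Src kinases and adaptors had 3 of 21 transcripts higher (2 without replicate 2), with Gab3 up by 1.29 (adjusted p = 6.72e-06), and downstream enzymes 5 higher and 4 lower of 34, a share like the 26.7% of all transcripts called, with Rac2 up by 0.83 (adjusted p = 0.00455) and Plcg1 at -1.31 (adjusted p = 3.28e-05). Of the shedding enzymes 2 of 8 rose, Aph1c by 1.28 (adjusted p = 9.12e-05) and Adam10, the protease that sheds TREM2, by 0.35 (adjusted p = 0.0282). Of the transcription factors 1 of 10 fell, Tfeb by 0.75 (adjusted p = 0.00298). Among 5 transcripts of TREM2 ligands, 3 rose and 1 fell. The 3 that rose are Apoe transcripts that share bases with others of the gene and had means of 3.82 to 8.78 TPM.

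Across the 30 libraries, members fell into loose groups. Tyrobp and Fcer1g had the highest Pearson r of log2(TPM + 1) between members (0.905), followed by Fcgr1 and Fcgr2b (0.85) and Tyrobp and Hcst (0.73), while Fcer1g and Syk NM_011518 had the lowest (-0.20). Trem2 and its adaptor Tyrobp had 0.29, but the Trem2 row is 1 transcript on an estimated 13 to 54 reads per library. That value is therefore not one for the whole Trem2 gene. Libraries share age, treatment and cell makeup, so these values describe this set of groups. Among transcripts with a mean of at least 10 TPM, Tyrobp was most like Cd68 (r = 0.91), Ptpn18 (0.87) and Npc2 (0.86), and Fcer1g most like Cyba (0.93), Casp1 (0.92) and Ptpn18 (0.92). Fcgr1 was most like Slc29a3 (0.94), Ppfia4 (0.93) and C1qa (0.93), Fcgr2b like Tnfrsf14 (0.94), Capns2 (0.935) and Ccrl2 (0.93), and Fcgr3 like Abhd12 (0.86), Daglb (0.83) and C1qc (0.815). Fcgr4 was most like Psme1 (0.79), C3 (0.79) and Ly86 (0.78), Hcst like Syngr1 (0.83), Arl11 (0.82) and Cd48 (0.82), and Trem2 like Twf2 (0.825), Gsdmd (0.825) and 1600010M07Rik (0.82). Syk NM_011518 was most like A230046K03Rik (0.88), Nckap1l (0.82) and Slc15a4 (0.80), and Syk NM_001198977 like Arhgap30 (0.74), Laptm5 (0.72) and Dock11 (0.72).

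Promoter sequences are shown for Hcst and Fcgr4, which lay higher in all 6 repopulated libraries and hold a motif that was searched for. Tyrobp also lay higher in all 6, but no promoter sequence of it was at hand, so it was not searched. PU.1, the myeloid transcription factor encoded by Spi1, binds sites with the core AGGAAGT. Searched on both strands of the RefSeq promoters (300 bases, 250 before and 50 after the start), these letters were in 4 of the 9 members with a sequence, Fcgr1, Fcgr4, Hcst and Inpp5d, and in 9.35% of 32851 promoters. A palindromic C/EBP motif (TTGCGCAA, in 0.183% of promoters) and the MITF and TFE3 motif (TCACGTGA, in 0.974%) were in none of the members, and an IRF motif (GAAACTGA, in 1.92%) was in Inpp5d. A match is a description of these letters, not a site. The sequences run in the direction of the gene on GRCm38, Hcst at chr7:30419805-30420104 (minus strand) and Fcgr4 at chr1:171018676-171018975 (plus strand), with matches in capitals: 2 in Hcst, and 1 in Fcgr4 that reads on the other strand.
Hcst promoter: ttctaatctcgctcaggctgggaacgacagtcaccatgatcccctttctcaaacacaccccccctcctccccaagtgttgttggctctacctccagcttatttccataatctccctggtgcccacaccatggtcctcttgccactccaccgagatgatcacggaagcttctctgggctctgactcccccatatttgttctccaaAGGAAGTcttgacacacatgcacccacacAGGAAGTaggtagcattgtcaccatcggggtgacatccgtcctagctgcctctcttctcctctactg
Fcgr4 promoter: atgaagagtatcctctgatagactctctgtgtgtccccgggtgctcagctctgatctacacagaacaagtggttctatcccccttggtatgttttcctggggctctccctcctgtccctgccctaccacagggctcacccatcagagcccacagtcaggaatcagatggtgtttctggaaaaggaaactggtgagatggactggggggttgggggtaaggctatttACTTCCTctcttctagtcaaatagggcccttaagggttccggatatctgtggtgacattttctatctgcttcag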

How the data were processed

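The 30 libraries were grouped by their labels (age, maternal treatment, postnatal treatment). The authors deposited 1 table of TPM values per RefSeq transcript, made from non-stranded poly(A) reads that they aligned to mm10 with Rsubread and assigned with featureCounts, in versions not given in the sources used here. The table's column of the authors' module assignments was not used. Columns summed to 995495 to 998012 TPM. The spacing of low values gave an estimated 7526000 to 12016000 reads per library, with transcript lengths matched for 13852 transcripts (97.4%) and 74.8% to 81.6% of values within 0.2 of a whole read, so no count test was run.

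Changes were tested with limma 3.58.1 (R 4.3.3, trended variance) on log2(TPM + 1) in 1 model of all 10 groups with 11 contrasts, adjusted over 14225 transcripts, and checked on simulated data. Group differences are means of 3 libraries, and age steps average Saline and MIA. Alternatives were a pseudocount of 0.1, quantile normalization, a minimum mean of 1 TPM, scaling by median ratios, a replicate block, no variance trend, log2 Xist as a covariate, only the groups compared, only Saline or only MIA offspring, and each library left out. Counts of the lists without Saline + MG-REP replicate 2 were added after seeing the data, as was a fit with the replicate number of the P20 libraries as a term. P20 is the age at which every same-numbered pair deviated together (r of 0.112 to 0.245, against -0.172 to 0.021 for other pairs), so the numbers were taken as pairs there, from the data and not from the labels. All members with a row were named; from each pathway list up to 3 called transcripts with the largest rise and 3 with the largest fall could be named per contrast, and for each member the 3 most correlated transcripts with a mean of at least 10 TPM. The lists were TREM2 ligands, receptors paired with DAP12 or the Fc gamma chain, Src kinases and adaptors, downstream enzymes, inhibitory receptors and phosphatases, shedding enzymes, TREM2-dependent genes and transcription factors, 1 of which is not reported here. Members and lists were chosen with earlier results of these data known. Transcript overlap and coordinates came from GENCODE and RefSeq on GRCm38, and promoters from RefSeq (GRCm38.p6). Figures were drawn with matplotlib 3.10.9 in Python 3.11.15.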

Additional observations from a re-analysis of the deposited data

Results flagged for a closer look

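No member passed the test of a difference in response to repopulation between Saline and MIA offspring, and groups of 3 libraries were not tested for single outlying values. Several partner transcripts named from the pathway lists passed it (limma, MIA minus Saline difference of MG-REP minus CTRL on the log2 scale, adjusted over all 14225 transcripts, 10.5% of which were called), and each is given as a value. They were looked up only among transcripts named for a large called change after repopulation in these same libraries. That choice favors a difference between the offspring, so the 10.5% is not a like background for them. Among receptors and inhibitory receptors the difference was -3.39 for Trem1 (adjusted p = 0.00231), -2.16 for Clec4e (0.0257), -2.37 for Clec12a (0.00291) and 0.97 for Sirpa (0.013). Among signaling genes it was -1.06 for Gab3 (0.00734), -0.90 for Vav3 (0.0396), 0.76 for Vav2 (0.045), 1.18 for Plcg1 (0.00936) and 0.68 for Pik3r1 (0.0226). Among the remaining lists it was -1.25 for Aph1c (0.00986), -1.61 for Cst7 (0.0182), 1.03 for Ccl6 (0.048) and 1.11 for Ctsl (0.0298). The Apoe transcripts NM_001305844, NM_001305819 and NM_001305843 had -2.27 (0.00102), -1.65 (0.00511) and -1.88 (0.00811). Mitotic, monocyte and neutrophil marker sums also differed between the MG-REP groups, and their part was not tested.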

How the results depend on the processing

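Of 412 alternative values for 22 changes of single members, 339 kept direction and side of the threshold, 58 kept direction but lost the call, 10 gained it and 5 changed sign. The 5 were all the difference in response of Fcgr4, whose value was -0.11: it became 0.14, 0.12, 0.04, 0.05 and 0.03 without Saline + CTRL replicate 2, MIA + CTRL replicate 3, Saline + MG-REP replicate 2, Saline + MG-REP replicate 3 and MIA + MG-REP replicate 3, in a range of -0.43 to 0.14 over all libraries left out.

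From E17 to P7, 1 member was called, and 0 with quantile normalization, only Saline or only MIA offspring (0 to 1 on leaving out libraries). From P7 to P20, 5 were called, 3 with only Saline or only MIA offspring, and up to 6 in the other settings (3 to 5 on leaving out libraries). From P20 to P60, 1 was called, 0 with a pseudocount of 0.1, median-ratio scaling, quantile normalization, the Xist covariate, only the groups compared, only Saline or only MIA offspring or the replicate block at P20 alone, and 2 with no trend (0 to 2). For MG-REP in Saline offspring, 3 were called, 1 with only the groups compared, and 4 with quantile normalization, where Fcgr3 was called lower (2 to 4). Between the MG-REP groups 0 were called, and 2 with quantile normalization. The cause was not tested. Over all transcripts, 1535 were called from E17 to P7, and 868, 615 and 340 with only the groups compared, only Saline and only MIA offspring. From P20 to P60 the 1700 became 365, 499 and 370 with the Xist covariate, only Saline and only MIA offspring. For MG-REP in Saline offspring the 3805 became 1911 with only the groups compared and 2460 without Saline + MG-REP replicate 1, which also took the difference in response from 1496 to 963 and MIA against Saline in MG-REP from 3124 to 1731. For MG-REP in MIA offspring the 79 became 30 with the Xist covariate, and 41 to 52 without MIA + CTRL replicate 2 or 3 or any 1 MIA + MG-REP library.

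Same-numbered libraries correlated over 0.1 in 3 of 3 pairs at P20 but in 2 of 3 at E17, 1 of 3 at P7 and 6 of 18 at P60 (r of -0.55 to 0.67 over all 27), so they were taken as pairs at P20 alone. There the replicate block left MIA against Saline at 0 members and 0 transcripts called. The replicate block at all ages had a consensus correlation of 0.03. With it, 4 members were called from P7 to P20, Fcer1g having an adjusted p of 0.0504, and it changed no other call of a member. The low rows (Trem2, Fcgr2b, Syk) are limited by read numbers.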
